A study of Mus musculus with 12 samples.

Results

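DNA transposons are the repeats that moved by cutting themselves out of the genome and pasting themselves in elsewhere. The members described here are all entries of the deposited repeat count table whose class is exactly DNA, 128931 loci of the 3156417 repeat loci in the table. A further 1346 loci whose class carries a question mark were left out. The 128931 loci belong to 262 subfamilies in 19 families as the table spells them.

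The libraries came from naive CD4+ T cells purified from mouse spleen and pLN (spelled so in the labels), either WT or Ddx55-KO. Cells were collected unstimulated, called 0 h here, and at 8 h and 24 h of stimulation by plate-bound antibodies. These were to CD28, coated at 2.5 ug/ml, and to CD3, coated at 5 ug/ml, and trigger the costimulatory receptor and the T cell receptor. Each of the 6 groups has 2 libraries, 12 in all, made from ribosomal-RNA-depleted total RNA with a strand-preserving kit. All 6 groups were purified in the same way, and the WT and KO cells received the same antibodies. Mouse strain and age, how and in which cells Ddx55 was deleted, and the number of mice behind a group's libraries were not given in the sources used. The p-values therefore measure only the spread between these samples, which may be technical.

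A DNA transposon ends in inverted repeats, which its transposase binds. The mouse genome holds many old copies of 2 superfamilies, hAT (Charlie, Tip100, Blackjack and others) and Tc1/mariner (Tigger, Tc2, Mariner and others). They are too damaged to move, so RNA that covers them is mostly part of a longer transcript, such as an intron not yet spliced out or an untranslated region (UTR). Ddx55 is a DEAD-box RNA helicase that works in the making of the large ribosomal subunit, and T cell stimulation switches naive cells from rest to growth and division.

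Copies show what the counted sequences look like. All were read from GENCODE M21 transcripts on the transcript strand (GRCm38, the same sequence as mm10), since no genome sequence of that build was at hand, and all lie in coding or noncoding exons, none in a UTR. The first 3 are whole annotated copies of URR1A and URR1B, short hAT-Charlie subfamilies with 18791 and 13752 loci. Capitals mark the bases, among the outermost 12 at each end, that pair with the other end when the copy is folded back as an inverted repeat. The D030028A08Rik copy (chr11:96964023-96964211, plus strand) pairs 10 of 12 bases and the 9330175E14Rik copy (chr8:94433469-94433649, minus strand) 11 of 12. The Traf3ip3 copy (chr1:193186037-193186228, minus strand) pairs 2 of 12 when compared base by base with no shift. Its annotated sequence lacks the closing G of the D030028A08Rik and 9330175E14Rik copies, which puts its ends out of step. The low value therefore does not show how many end bases it keeps.
URR1B in D030028A08Rik: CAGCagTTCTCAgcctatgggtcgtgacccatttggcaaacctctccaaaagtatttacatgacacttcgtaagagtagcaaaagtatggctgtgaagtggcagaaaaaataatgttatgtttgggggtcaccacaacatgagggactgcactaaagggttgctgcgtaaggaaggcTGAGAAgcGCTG
URR1A in 9330175E14Rik: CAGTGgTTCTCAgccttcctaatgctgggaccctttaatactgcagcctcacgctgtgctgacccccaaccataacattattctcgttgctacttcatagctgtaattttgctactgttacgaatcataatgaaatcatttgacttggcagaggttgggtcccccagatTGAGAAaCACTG
URR1B in Traf3ip3: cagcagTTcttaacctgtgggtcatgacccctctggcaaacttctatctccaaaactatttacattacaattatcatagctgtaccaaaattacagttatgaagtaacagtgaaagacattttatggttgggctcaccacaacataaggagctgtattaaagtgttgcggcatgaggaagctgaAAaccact

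The inverted ends were counted in URR1 and in the other copies of the family. Of 721 annotated URR1A and URR1B copies that lie whole in an exon, 24.4% start with CAG and end with CTG, against 1.37% of 1172 other hAT-Charlie copies. An annotated copy need not reach both ends of its element, and no shift was allowed. Ends that are missing and ends that have changed are therefore counted alike. At least 10 of the 12 end bases paired in 15.7% of the URR1 copies and in 0.512% of the others. The 8 bases on either side of a copy, where hAT insertion leaves a duplicated target site, matched in at least 7 places for 6.93% and 0.256%.

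The next pair shows the same stretch of Tigger10 in 2 genes that grew out of transposases, Tigd2 (chr6:59210767-59210916, plus strand) and Jrkl (chr9:13244888-13245037, minus strand). Capitals mark bases that are identical between them, 115 of 150, and over the 610 aligned bases of the 2 copies 70.7% were identical.
Tigger10 in Tigd2: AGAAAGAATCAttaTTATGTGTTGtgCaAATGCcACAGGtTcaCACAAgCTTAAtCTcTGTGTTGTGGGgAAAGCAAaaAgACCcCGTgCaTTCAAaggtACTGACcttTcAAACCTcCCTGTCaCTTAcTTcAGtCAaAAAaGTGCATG
Tigger10 in Jrkl: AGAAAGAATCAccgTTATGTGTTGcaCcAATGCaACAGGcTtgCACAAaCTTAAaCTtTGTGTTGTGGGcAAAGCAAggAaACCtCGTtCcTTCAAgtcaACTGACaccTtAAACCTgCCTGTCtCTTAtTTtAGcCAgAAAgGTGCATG

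The last 3 are copies to which results below return: the first 150 bases of a coding Charlie24 copy in Zbed5 (chr5:129901704-129901853, plus strand), and the noncoding-exon copies MamRep434 in Rasgrp2 (chr19:6409206-6409413, plus strand) and Arthur2 in Dzip1 (chr14:118913162-118913316, minus strand).
Charlie24 in Zbed5: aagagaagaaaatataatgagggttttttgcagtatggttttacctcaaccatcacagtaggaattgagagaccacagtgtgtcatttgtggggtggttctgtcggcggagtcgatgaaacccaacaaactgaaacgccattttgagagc
MamRep434 in Rasgrp2: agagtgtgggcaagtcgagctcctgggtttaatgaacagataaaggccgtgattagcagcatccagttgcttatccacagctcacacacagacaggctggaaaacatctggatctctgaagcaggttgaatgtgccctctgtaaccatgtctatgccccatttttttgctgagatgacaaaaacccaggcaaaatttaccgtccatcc
Arthur2 in Dzip1: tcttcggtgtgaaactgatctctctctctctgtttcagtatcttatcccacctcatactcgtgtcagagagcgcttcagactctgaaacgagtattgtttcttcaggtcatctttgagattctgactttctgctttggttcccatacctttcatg

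The libraries hold 16810375 to 19126498 gene counts and 45939 to 72851 counts at DNA loci, and values below are gene-count-scaled counts on the usual per-million-counts scale (CPM) after TMM scaling, a correction for composition. Ddx55 itself was at 45.3 to 68.7 CPM in the 6 WT libraries and at 14.4 to 19.5 CPM in the 6 KO libraries, in the direction of the labels. All 8 T cell markers were expressed, with a summed level of 3004 to 4864 CPM in WT and 3427 to 4729 CPM in KO. Markers of other cells differed between genotypes: at 24 h, where 38.6% of all genes passed the test in either direction, all 8 basophil and mast cell markers were higher in KO, with a summed 5.73 and 6.03 CPM in WT and 167 and 595 CPM in KO, and so were 4 of 10 neutrophil markers, 5 of them being at 0 in the WT libraries. At the same time 2 of 6 myeloid and 1 of 5 CD8 T and NK markers were higher, 0 of 6 erythroid markers passed, and of 3 B cell markers that could be tested 1 was lower, with a sum over the B cell list of 230 and 245 CPM in WT and 90.0 and 82.5 CPM in KO. At 0 h the neutrophil markers summed to 13.0 and 55.8 CPM in WT and to 509 CPM in both KO libraries, and the basophil and mast cell markers to 22.6 and 42.7 CPM in WT and 300 and 786 CPM in KO. Their part in the differences at DNA loci was not tested, and in bulk samples fewer cells of a type and less RNA per cell cannot be told apart.

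Most DNA loci had no count, and most of the counts lay in genes. Of the 128931 loci, 22380 had a count in any library and 106551 had none. Copies that overlap an exon, by 1 base or more, were 3.27% of the loci and held 59.0% of the 681841 DNA counts. Intronic copies were 49.6% of the loci with 36.7% of the counts, and intergenic copies 47.2% of the loci with 4.28%. In the other classes the exonic share of counts was 30.9% for LINE, 35.8% for LTR and 44.2% for SINE elements. DNA loci gave 23.2 counts per kilobase of annotated sequence, against 4.21 for LINE, 18.5 for LTR and 41.1 for SINE loci, and 31.9 for L2 and MIR elements, the other old repeats. The large exonic share was not particular to DNA loci, since L2 and MIR loci were alike in it. In WT 0 h replicate 1, for example, 30406 of 63233 DNA counts and 20515 of 46793 L2 and MIR counts lay outside exons. In KO 24 h replicate 1 these were 19840 of 52569 and 13590 of 33914.

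The counts were concentrated in few copies. The 8 highest loci held 10.6% of all DNA counts, the 100 highest 34.7%, and 272 loci held 50%. After the filter on low counts, 1550 DNA loci with 75.7% of the DNA counts could be tested one by one, among 37251 loci of the 4 classes. Of the counts at those 1550 loci, 44.9% came from 298 copies in 3′ UTRs, 24.5% from 844 copies in introns, 12.2% from 225 copies in noncoding exons, 9.94% from 42 copies in coding exons and 1.81% from 70 intergenic copies. The remaining 71 copies lay in 5′ UTRs or in sequence that is a UTR in only some transcripts.

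hAT-Charlie and TcMar-Tigger made up most of the signal. The 85230 hAT-Charlie loci held 67.1% of the DNA counts and the 24401 TcMar-Tigger loci 19.4%, close to their shares of the loci, 66.1% and 18.9%. Smaller families often rested on 1 copy: 23.3% of the hAT-Tip100 counts came from a FordPrefect copy, 34.5% of the hAT-Blackjack counts from a MER63B copy, 55.0% of the hAT-Ac counts from an OldhAT1 copy and 61.0% of the TcMar-Tc1 counts from an X32_DNA copy. TcMar-Tc1 had few loci and a high density, 96 loci with 172 counts per kilobase. Of the 19 families, 16 could be tested, and Harbinger (34 counts), TcMar? (21 counts) and TcMar-Pogo (0 counts at 16 loci) could not.

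The 8 highest copies lay in exons of named genes. The highest was an X12_DNA copy over the edge of a coding exon of U2af2, a splicing factor (13953 counts, chr7:5067204-5067294), where 49.5% of the copy is coding sequence. A MER20 copy in the 3′ UTR of Ikzf1, a lymphoid transcription factor, followed with 12090 counts. URR1B copies in the 3′ UTRs of Aen, a nuclease (8700 counts), and Tapbp, which helps load peptides onto MHC class I (8684 counts), came next. The others were FordPrefect in the noncoding transcript Gm26917 (8414 counts), Charlie6 in Thumpd1 (8328 counts), MER33 in Wipf1, an actin regulator (7277 counts), and MER117 in Vsir, an inhibitory receptor of T cells (5152 counts). FordPrefect differed between libraries of 1 group, with 10.4 and 37.5 CPM in WT at 0 h, and it passed no test.

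Stimulation of WT cells asks how DNA loci change as naive cells activate. The summed level of all DNA loci fell with stimulation. It was 3731 and 3728 CPM at 0 h, 3010 and 3119 CPM at 8 h and 2591 and 2484 CPM at 24 h, and the 3 times did not overlap. The log2 difference from 0 h was -0.28 ± 0.10 (SE) at 8 h and -0.56 ± 0.10 at 24 h, with adjusted p of 0.022 and 7e-05 (edgeR quasi-likelihood test, adjusted over 56 sums of repeats). The other classes also fell at 24 h, by 0.84 for LINE, 0.77 for LTR and 0.58 for SINE loci on the log2 scale. In CPM scaled by repeat counts instead of gene counts the DNA total moved the other way at 24 h, 0.19 on the log2 scale (adjusted p = 0.044), and DNA loci went from 3.67% and 3.77% of all repeat counts at 0 h to 4.07% and 4.04% at 24 h. The fall at 8 h missed the threshold when any of 9 single libraries was left out, with adjusted p up to 0.131.

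The fall lay mainly in introns, as the plot of levels by place shows. Intronic copies were at 1626 and 1567 CPM at 0 h in WT, 1005 and 1071 CPM at 8 h and 814 and 667 CPM at 24 h. Their log2 difference from 0 h was -0.62 ± 0.15 at 8 h and -1.11 ± 0.16 at 24 h (adjusted p = 0.0079 and 4.7e-05), and that at 8 h missed the threshold without WT 8 h replicate 1 (-0.57, adjusted p = 0.071). Intergenic copies went from 168 and 147 CPM to 129 and 136 CPM and then 90.7 and 93.9 CPM, a log2 difference of -0.77 ± 0.14 at 24 h (adjusted p = 7.9e-05) that was lost when scaled by repeat counts (-0.025, adjusted p = 0.85). Exonic copies stayed closest to their starting level, from 1937 and 2014 CPM at 0 h to 1687 and 1723 CPM at 24 h, a log2 difference of -0.21 ± 0.08 (adjusted p = 0.019) that no longer passed when any of 7 single libraries was left out (adjusted p from 0.069 to 0.32), the 4 WT libraries of 0 h and 24 h among them, nor with DESeq2 or gene totals alone (adjusted p = 0.064 and 0.055), and that turned to 0.53 when scaled by repeat counts. The difference between places was not tested. Relative to L2 and MIR loci, DNA counts outside exons kept their ratio, with 1.46 and 1.48 DNA counts per L2 or MIR count at 0 h and 1.44 and 1.45 at 24 h. Over all loci, exonic ones included, the ratio in WT rose from 1.35 and 1.39 at 0 h to 1.55 and 1.53 at 24 h.

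**Figure D1:**
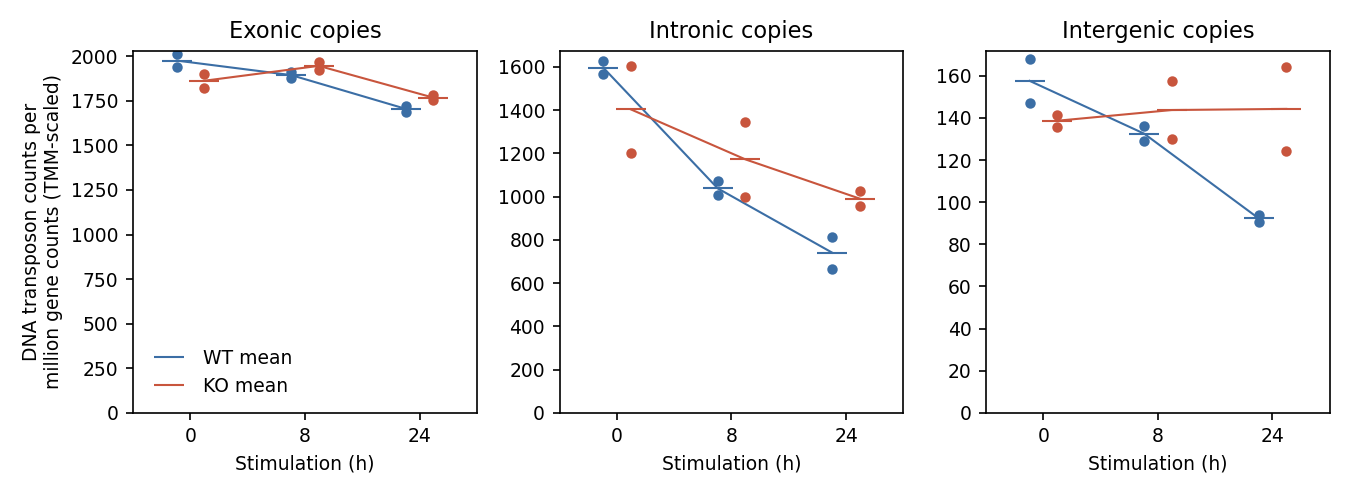
Summed level of exonic, intronic and intergenic DNA transposon loci (CPM, TMM-scaled) against hours of stimulation. Points are single libraries and lines join the means of the 2 libraries of a group; WT intronic copies drop from 1626 and 1567 to 814 and 667, and KO intergenic copies at 24 h (124 and 164) lie above both WT libraries.

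Most families took part. At 24 h, 11 of the 16 families were lower in WT than at 0 h and none was higher, where 82.1% of all 56 sums passed the test. hAT-Charlie differed by -0.59 ± 0.09 on the log2 scale (adjusted p = 2.2e-05), TcMar-Tigger by -0.48 ± 0.10, hAT-Blackjack by -0.76 ± 0.14, and the small families hAT-Tag1 and TcMar by -1.14 ± 0.20 and -1.17 ± 0.21. TcMar-Mariner (-0.20 ± 0.13), TcMar-Tc1 (-0.05 ± 0.14), hAT-Ac (-0.33 ± 0.21), hAT? (0.28 ± 0.33) and Kolobok (-1.06 ± 0.74) did not pass. Scaled by repeat counts, 7 of the 11 lay above 0, hAT-Charlie at 0.16 and TcMar-Tigger at 0.27 among them. At 8 h, 9 families passed, where 57.1% of the 56 sums did, and 1 of them, TcMar-Tc2, was higher, by 0.35 ± 0.15 (adjusted p = 0.049). It was lower at 24 h, by -0.42 ± 0.15 (adjusted p = 0.015). Leaving out 1 library moved the count at 8 h to between 0 and 12 families and that at 24 h to between 7 and 12.

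**Figure D2:**
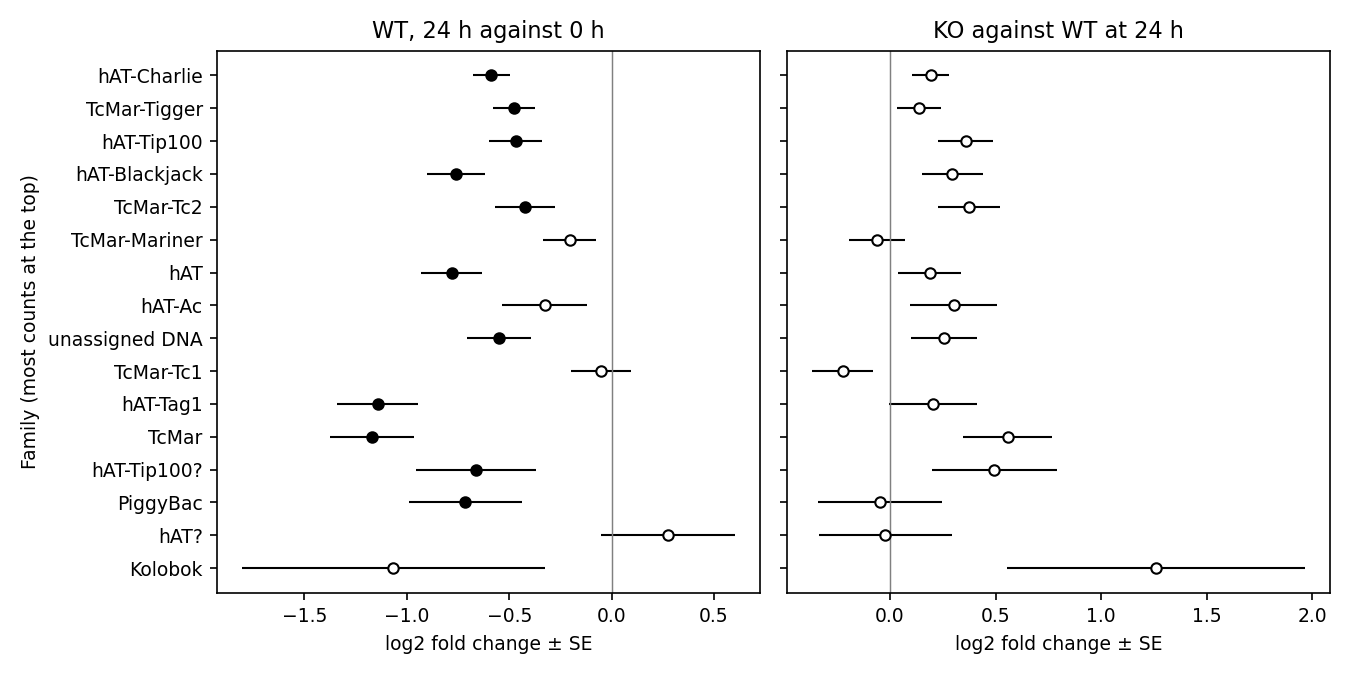
Log2 difference with its standard error for the 16 tested DNA families, WT 24 h against 0 h on the left and KO against WT at 24 h on the right. Filled points have an adjusted p under 0.05: 11 families on the left, all lower, and none on the right.

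Below the families, 190 of the 262 subfamilies could be tested, among 1180 subfamilies of the 4 classes. In WT, 74 of the 190 (17 higher, 57 lower) had changed at 8 h, 38.9% against a background of 43.1%, and 98 (12 higher, 86 lower) at 24 h, 51.6% against 62.5%. Their median log2 difference was -0.38 at 8 h and -0.69 at 24 h, beside -0.45 and -0.78 over all 1180. Scaled by repeat counts the calls were 37 higher and 28 lower at 8 h and 42 higher and 34 lower at 24 h. Of the 8 subfamilies with most counts, 7 were lower at 24 h: URR1B (-0.44), URR1A (-0.83), MER20 (-0.93), MER2 (-0.61), MER58A (-0.39), MER33 (-0.42) and RCHARR1 (-0.57). Scaled by repeat counts, 5 of these 7 lay above 0, URR1B (0.30), MER58A (0.36), MER33 (0.32), MER2 (0.13) and RCHARR1 (0.17). The eighth, MER5A, went from 77.8 and 76.0 CPM at 0 h to 81.1 and 82.7 CPM and did not pass. URR1A was at 423 and 408 CPM at 0 h and at 243 and 223 CPM at 24 h. Among subfamilies with a mean count of at least 50, the largest falls at 24 h were those of MamRep434 (-3.35 ± 0.28), MER113 (-2.10 ± 0.21), Zaphod2 (-2.05 ± 0.22) and MER63C (-1.82 ± 0.30), and at 8 h those of MamRep434 (-2.43), MER96B (-1.55), MER113 (-1.54) and MamRep38 (-1.52).

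Subfamilies that rose usually rested on 1 exonic copy. Charlie6 rose by 1.47 ± 0.15 at 8 h (22.1 and 21.5 CPM to 61.9 and 58.7 CPM), and 99.0% of its counts came from the copy in Thumpd1; without that copy its difference was -0.30 (adjusted p = 0.80). MER45A rose by 1.42 ± 0.20 with 72.7% of its counts from a copy in St6galnac4, and without it was lower, by -1.18 (adjusted p = 0.012). Charlie24 rose by 2.14 ± 0.24, from 3.42 and 4.15 CPM to 17.4 and 16.1 CPM, with 61.9% from Zbed5, and without that copy did not pass (0.64, adjusted p = 0.16). MER91B rose by 1.82 ± 0.19 at 24 h, 64.0% of it from Pdgfb, and without that copy did not pass (0.42, adjusted p = 0.092). When each subfamily lost its highest copy, 54 subfamilies passed at 8 h (5 higher, 49 lower) and 79 at 24 h (2 higher, 77 lower). This alternative was chosen after seeing the data.

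Single copies moved with stimulation in both directions. Of the 1550 DNA loci, 537 (168 higher, 369 lower) passed at 8 h, 34.6% against a background of 31.7% over all loci, DNA loci included, and 629 (129 higher, 500 lower) at 24 h, 40.6% against 39.7%. Scaled by repeat counts the calls were 256 higher and 219 lower at 8 h and 246 higher and 228 lower at 24 h. Across loci that lie in a gene, the change of the copy followed that of the gene, with Pearson's r of 0.90 at 8 h and 0.86 at 24 h over 631 exonic copies and of 0.76 and 0.69 over 840 intronic copies. These are correlations across loci, which are not independent replicates, and an exonic copy and its gene can share reads.

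The copies that rose most included ones in Il2ra, Pdgfb and Wnt10b. A MER5A copy in the 3′ UTR of Il2ra, the alpha chain of the IL-2 receptor (chr2:11690942-11691044), had 1 and 0 counts in WT at 0 h, 266 and 330 at 8 h and 240 and 292 at 24 h. A second, 34-base MER5A copy there (chr2:11691211-11691244) had 0 and 0, then 82 and 72, then 68 and 50 counts. A MER91B copy in Pdgfb, a growth factor (chr15:79996318-79996477), was at 0.118 and 0.12 CPM, then 7.16 and 6.91 CPM, then 14.4 and 17.2 CPM, a log2 difference of 6.97 ± 0.37 at 24 h. A MER58A copy in Wnt10b, a WNT ligand (chr15:98771204-98771444), had 0 and 0, then 44 and 26, then 85 and 42 counts. In all 4 copies the counts at 0 h lay below every count at 8 h and 24 h. The highest copy of all, X12_DNA in U2af2, rose from 43.1 and 43.7 CPM to 96.4 and 82.9 CPM at 8 h, by 1.05 ± 0.14.

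Copies that fell included ones in introns and in or beside noncoding exons. A MER20 copy in an intron of Oas2, an interferon-induced gene, went from 1.71 and 1.80 CPM at 0 h to 0.330 and 0.293 CPM at 8 h and had no count in either WT library of 24 h. A MER2 copy in an intron of Ablim1, an actin-binding protein (chr19:57037419-57037740), went from 14.8 and 8.06 CPM to 1.05 and 1.29 and then 0.431 and 0.324 CPM, a log2 difference of -4.90 ± 0.37 at 24 h, where Ablim1 itself differed by -1.91. The MamRep434 copy printed above, in Rasgrp2, an activator of the GTPase Rap1, went from 8.62 and 9.86 CPM to 0.881 and 0.468 and then 0 and 0.216 CPM (-6.33 ± 0.79, gene -5.15). A MER63B copy with 0.501% of its length in an exon of the noncoding transcript Gm11346 (chr13:24599100-24599498) differed by -5.31 ± 0.40 at 24 h. At 8 h a URR1A copy in an intron of Lef1, a transcription factor of naive T cells (chr3:131218831-131219056), differed by -5.05 ± 0.56 (gene -1.90), a MER102b copy in an intron of Arl6ip5 (chr6:97228351-97228662) by -4.12 ± 0.57 (gene -1.30), and the Arthur2 copy in Dzip1 printed above by -4.17 ± 0.54 (gene -3.90). The 3 intronic copies given with a gene value, in Ablim1, Lef1 and Arl6ip5, fell by more than their genes, and that difference was not tested.

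Several copies peaked or dipped at 8 h. MER117 in Vsir went from 18.6 and 17.4 CPM to 38.6 and 39.8 CPM at 8 h and 7.43 and 10.3 CPM at 24 h. The MER102a copy in Gm2a, a lysosomal activator protein, went from 34.4 and 30.2 CPM to 3.53 and 3.34 and then 11.5 and 11.5 CPM. RMER30 in the 3′ UTR of E2f2, a cell cycle transcription factor (chr4:136194640-136194816), dipped from 1.36 and 2.41 CPM to 0.110 and 0.0585 CPM and reached 5.60 and 4.33 CPM at 24 h. All 3 patterns were larger than the gap between the 2 libraries of a group, and each step from 0 h passed the test.

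Among the few intergenic copies, the highest was a MER33 copy that lies 583 bases before Tbc1d22a (810 counts in all, chr15:86213676-86213876). It was followed by a URR1A copy 148 bases after Lyrm2 (516 counts) and a MER58A copy 2471 bases before AC124502.5 (491 counts, chr19:4995584-4995780). The MER58A copy had 1 and 0 counts at 0 h, 100 and 108 at 8 h and 42 and 34 at 24 h. A URR1A copy 1095 bases after Pdcd1, the gene of the inhibitory receptor PD-1 (chr1:94037032-94037210), rose from 0.177 and 0.361 CPM to 3.47 and 3.28 CPM at 8 h, by 3.62 ± 0.47, and was at 0.915 and 1.41 CPM at 24 h. A URR1B copy 4327 bases after Brf1 fell by 1.79 on the log2 scale at 24 h.

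The comparison of KO with WT asks whether loss of Ddx55 changes RNA from DNA loci. For the class as a whole no test passed at any time. The summed level in KO was 3160 and 3649 CPM at 0 h, 3051 and 3473 CPM at 8 h and 2861 and 2944 CPM at 24 h, and at 24 h both KO libraries lay above both WT libraries (2591 and 2484 CPM). The log2 difference between KO and WT was -0.13 ± 0.10 for 0 h, 0.09 ± 0.10 for 8 h and 0.19 ± 0.10 for 24 h, with adjusted p of 0.41, 0.71 and 0.13 in that order. Between 0 h and 24 h the KO effect itself shifted by 0.33 ± 0.14 (adjusted p = 0.066). Scaled by repeat counts, the 24 h difference turned to -0.12.

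By place, intergenic copies differed at 24 h. They were at 124 and 164 CPM in KO and at 90.7 and 93.9 CPM in WT, without overlap, a log2 difference of 0.64 ± 0.14 (adjusted p = 0.0066) where 5.36% of the 56 sums passed. Scaled by repeat counts it was 0.32 (adjusted p = 0.017). The difference was not past the threshold without WT 24 h replicate 1 (0.63, adjusted p = 0.064) or without KO 24 h replicate 2 (0.45, adjusted p = 0.14). Intronic copies were at 955 and 1026 CPM in KO and 814 and 667 CPM in WT at 24 h, a difference of 0.42 ± 0.15 that did not pass (adjusted p = 0.091). Exonic copies were at 1781 and 1755 CPM against 1687 and 1723 CPM (0.05 ± 0.08, adjusted p = 0.62). The intergenic difference grew from -0.18 ± 0.14 at 0 h, and that growth was 0.83 ± 0.19 (adjusted p = 0.022), a value that missed the threshold without either replicate 1 of WT 0 h, WT 24 h or KO 0 h, or without KO 24 h replicate 2 (0.61 to 0.80, adjusted p from 0.072 to 0.17). It also missed the threshold when scaled by repeat counts (0.34, adjusted p = 0.16) and with gene totals alone (0.81, adjusted p = 0.071). In the other classes the intergenic difference at 24 h was 0.51 for SINE, 0.86 for LINE and 0.06 for LTR loci. Their adjusted p was 0.0066, 0.052 and 0.74 in that order. The growth from 0 h was 0.64, 0.94 and 0.60 (adjusted p = 0.022, 0.055 and 0.052), so the intergenic difference was not particular to DNA loci.

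The share of DNA loci among repeat counts was compared over all 12 libraries by an exact permutation test that exchanged genotypes within each time, two-sided. The mean log2 difference in share was 0.039 (exact permutation p = 0.0926, 4 such values tested, unadjusted). Outside exons the share was 2.60% to 2.98% in the KO libraries and 2.32% to 2.73% in WT, a difference of 0.12 with an exact permutation p = 0.00926, the smallest this test can give. Relative to L2 and MIR loci, the other old repeats, the difference was 0.012 over all loci (exact permutation p = 0.398) and 0.016 outside exons (p = 0.130). Intergenic LTR loci, which are part of the total outside exons, differed between KO and WT by -0.53, -0.44 and 0.06 at 0 h, 8 h and 24 h. Their adjusted p in the edgeR test was 0.021, 0.17 and 0.74, and their part in the share was not tested.

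No family passed the test for KO against WT at 0 h, 8 h or 24 h, where 3.57%, 0.0% and 5.36% of all sums did. At an unadjusted p under 0.05 the families with the smallest adjusted p at 24 h were hAT-Tip100 (0.36 ± 0.13, adjusted p = 0.085), TcMar (0.56 ± 0.21, adjusted p = 0.091) and TcMar-Tc2 (0.37 ± 0.15, adjusted p = 0.093). Of the hAT-Tip100 counts, 23.3% came from the FordPrefect copy in Gm26917, which had 938 and 978 counts in WT and 1185 and 1120 in KO at 24 h. hAT-Charlie differed by 0.19 ± 0.09 (adjusted p = 0.12) and TcMar-Tigger by 0.14 ± 0.10 (adjusted p = 0.28).

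Among the 190 subfamilies, 0 passed for KO against WT at 0 h (11 at an unadjusted p under 0.05) and 0 at 8 h (5 unadjusted), where 0.593% and 0.254% of all 1180 subfamilies passed. At 24 h 18 passed, 16 higher and 2 lower, 9.47% against a background of 15.9%, and scaled by repeat counts 7 were higher and 13 lower. The median log2 difference was 0.34 over the 190 and 0.34 over all 1180, and 148 of the 190 were above 0. The count depends on single libraries: it was 4 without either WT 24 h library or without KO 24 h replicate 2, 9 without KO 24 h replicate 1, and 8 to 10 without any of the 4 WT libraries of 0 h and 8 h. For the shift of the KO effect between 0 h and 24 h, 10 of the 190 passed, all upward, where 8.73% of all subfamilies did, and scaled by repeat counts 1 shifted upward and 6 downward.

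The subfamilies that were higher in KO differed in whether they still passed without their copy of highest count. Charlie2b, of hAT-Charlie, was at 14.4 and 11.2 CPM in WT and 34.7 and 35.1 CPM in KO at 24 h, a log2 difference of 1.45 ± 0.19 (adjusted p = 0.00014), and 85.9% of its counts came from Mdm4; without that copy it was 0.42 (adjusted p = 0.28). Tigger13a (1.19 ± 0.23, 17% from Fas), Tigger9b (0.89, 65.4% from an intron of Aen), MER63A (1.03 ± 0.18, 25.9% from Cd4), Charlie24 (0.97, 61.9% from Zbed5) and URR1B (0.34 ± 0.10, 12% from Aen) likewise missed the threshold without their highest copy, with adjusted p from 0.077 to 0.71.

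Among the other subfamilies higher in KO, 6 passed both ways. MER121, an hAT subfamily, was at 0.807 and 0.811 CPM in WT and 2.61 and 3.34 CPM in KO (1.87 ± 0.53, adjusted p = 0.033), and at 1.79 without its highest copy, in Kcnq1ot1. Charlie23a was at 0.592 and 0.865 CPM in WT and 2.34 and 2.21 CPM in KO (1.63 ± 0.37) and at 1.58 without its copy in Hist2h2be. Arthur2 (1.5, and 2.22 without its copy in Dzip1), Arthur1B (1.22 and 1.61), MamRep434 (1.02 and 1.0) and MER113 (0.72 and 1.06) also passed in both fits. Zaphod2 (0.71), Tigger22N1 (0.68), Tigger10 (0.54) and MamTip2b (0.52) passed only with all copies. Of the 18 subfamilies, 17 could be fitted without their highest copy, all 17 kept their direction and 6 kept an adjusted p under 0.05.

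Charlie16a and MARE10 were lower in KO. Charlie16a was at 17 and 16.4 CPM in WT and 11.6 and 11.4 CPM in KO (-0.54 ± 0.16, adjusted p = 0.037), with 44.4% of its counts from Trim44. MARE10 was at 13.0 and 10.2 CPM in WT and 3.81 and 4.90 CPM in KO (-1.41 ± 0.31), and 99.1% of it was the copy in Cbx5, a heterochromatin protein gene. By family, the 18 were 6 of 72 tested hAT-Charlie subfamilies, 6 of 43 TcMar-Tigger, 4 of 27 hAT-Tip100, 1 of 7 hAT-Blackjack and 1 in hAT.

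**Figure D3:**
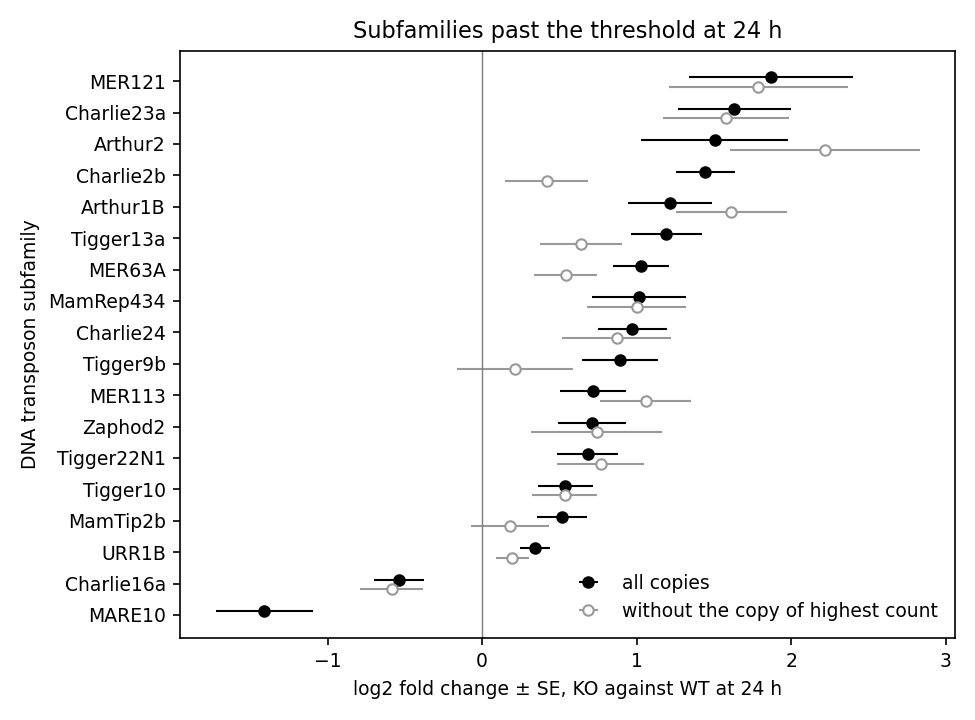
Log2 difference between KO and WT at 24 h for the 18 DNA subfamilies with an adjusted p under 0.05, with all copies and without the copy of highest count. The gap is widest where 1 copy holds most counts, as for Charlie2b (1.45 and 0.42), and small for MamRep434 (1.02 and 1.0).

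At the level of single copies few passed before stimulation. At 0 h 4 of 1550 DNA loci passed, all higher in KO, 0.258% beside 0.258% over all 37251 loci, and 85 had an unadjusted p under 0.05. At 8 h 5 passed (4 higher, 1 lower), 0.323% beside 0.231%, with 79 unadjusted. At 24 h 67 passed, 38 higher and 29 lower, 4.32% beside 3.95% (20 higher and 47 lower when scaled by repeat counts), and the median log2 difference was 0.25 over DNA loci and 0.24 over all loci. DESeq2 called 2, 3 and 34 DNA loci at the 3 times. Without either KO 24 h library or either WT 24 h library the count at 24 h was 28 to 38.

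The 4 copies at 0 h lay in 4 genes. The MER63A copy in an intron of Cd4 is described further on. A Charlie4z copy in the 3′ UTR of Hdc, which makes histamine and is a gene of basophils and mast cells (chr2:126593798-126593934), was at 0.059 and 0.421 CPM in WT and 2.7 and 2.75 CPM in KO, a log2 difference of 3.48 ± 0.63 (adjusted p = 0.0023), and Hdc differed by 3.35. The basophil and mast cell markers summed to 22.6 and 42.7 CPM in WT and 300 and 786 CPM in KO in the same libraries, and their part in this difference was not tested. A Tigger5b_Glire copy in the 3′ UTR of Il18rap, a chain of the IL-18 receptor, differed by 2.69 (gene 2.35), and the MER20 copy in Oas2 (chr5:120732243-120732442), was at 1.71 and 1.80 CPM in WT and 5.45 and 6.91 CPM in KO (1.81 ± 0.38, gene 1.31).

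At 8 h the Cd4 copy passed again. A URR1B copy in the 3′ UTR of Ggta1, a galactosyltransferase (chr2:35400736-35400957), was at 1.98 and 1.99 CPM in WT and 5.58 and 4.91 CPM in KO (1.40 ± 0.28, gene 1.48), and the MER102a copy in Gm2a at 3.53 and 3.34 CPM in WT and 6.77 and 7.0 CPM in KO (1.0 ± 0.20, gene 0.71). The 2 others that passed were intronic copies in Eif2d, where both WT libraries were at 0, and in Cdk5rap1.

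At 24 h the copies higher in KO included ones in Fas, Aen and Bax, genes that the transcription factor p53 is known to switch on, and in Mdm4. The Tigger13a copy at the edge of a coding exon of Fas, a death receptor (chr19:34308775-34309060), has 8.74% of its length in the exon. It was at 0.807 and 0.595 CPM in WT and 5.22 and 5.17 CPM in KO, a log2 difference of 2.88 ± 0.39 (adjusted p = 4.8e-07, Fas 2.60). URR1B in the 3′ UTR of Aen (chr7:78907444-78907670) was at 29.9 and 29.7 CPM in WT and 62.6 and 68.9 CPM in KO (1.14 ± 0.16, gene 1.18). Charlie2b in Mdm4, a p53 regulator (chr1:132990702-132990975), was at 11.1 and 8.60 CPM in WT and 30.2 and 31.7 CPM in KO (1.65 ± 0.20, gene 1.49). A URR1A copy in a noncoding exon of Bax, a pro-apoptotic gene, differed by 2.87 (gene 1.40). These genes were picked after their values were seen, and no list of p53 targets was tested.

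Other copies higher at 24 h lay in Tnfsf8, Ggta1, Ptpn22 and Vsir. A Charlie18a copy in an intron of Tnfsf8, the CD30 ligand (chr4:63849086-63849362), was at 0.484 and 0.811 CPM in WT and 5.55 and 3.93 CPM in KO (2.86 ± 0.38, gene 2.61). The URR1B copy in Ggta1 was at 1.99 and 2.49 CPM in WT and 9.85 and 8.08 CPM in KO (2.0 ± 0.27, gene 2.05). A Charlie17a copy in an intron of Ptpn22, a phosphatase that restrains T cell receptor signals (chr3:103876188-103876369), differed by 2.93 ± 0.68 (gene 1.29), and MER117 in Vsir by 0.83 ± 0.19 (gene 0.78). The KO libraries lay above both WT libraries at each of these copies.

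Copies lower in KO at 24 h lay in Ncapg2, E2f2, Stard4 and Idi1, among others. A MER91B copy in the 3′ UTR of Ncapg2, a condensin subunit (chr12:116461015-116461133), was at 8.50 and 6.11 CPM in WT and 0.272 and 0.377 CPM in KO, a log2 difference of -4.46 ± 0.49 (adjusted p = 2.6e-09, gene -4.17). RMER30 in E2f2 was at 5.60 and 4.33 CPM in WT and 0.381 and 0.377 CPM in KO (-3.69 ± 0.43, gene -3.65). MER33 in the 3′ UTR of Stard4, a cholesterol carrier, was at 5.92 and 5.73 CPM against 1.36 and 1.51 CPM (-2.02 ± 0.35, gene -2.22), and MER2 in Idi1, an enzyme of isoprenoid synthesis (chr13:8891223-8891498), at 20.1 and 14.8 CPM against 7.07 and 6.03 CPM (-1.41, gene -1.46). A Charlie22a copy in Eif5a2 differed by -1.86 ± 0.49 (adjusted p = 0.017), MER5B in Slamf6, a lymphocyte receptor (chr1:171948683-171948835), by -1.61 (23.9 and 27.5 CPM against 7.62 and 9.16 CPM), and a Charlie18a copy in Mcmbp, a partner of the MCM helicase, by -0.99. Ncapg2 and E2f2 copies rose in WT from 0 h to 24 h, by 6.78 ± 0.64 and 1.40 ± 0.35, and in KO both were at 0.381 CPM or less at 24 h.

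The copies that passed at 24 h mostly moved with their gene. Of the 67, 49 were exonic (24 higher, 25 lower), 17 intronic (14 higher, 3 lower) and 1 intergenic, a MER2 copy near Gm13502 that was lower by -1.60. Of the 66 in a gene, 57 had a gene past the threshold too, where 38.6% of all genes passed, and all 57 genes moved in the direction of the copy. These were 45 of the 49 exonic copies, which can share reads with their gene, and 12 of the 17 intronic copies. Over all tested copies in genes, Pearson's r between copy and gene was 0.74 for 631 exonic and 0.43 for 840 intronic copies, as the plot of copies against their genes shows. The median difference was 0.08 for exonic and 0.43 for intronic copies, beside medians of 0.03 and 0.05 for their genes.

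**Figure D4:**
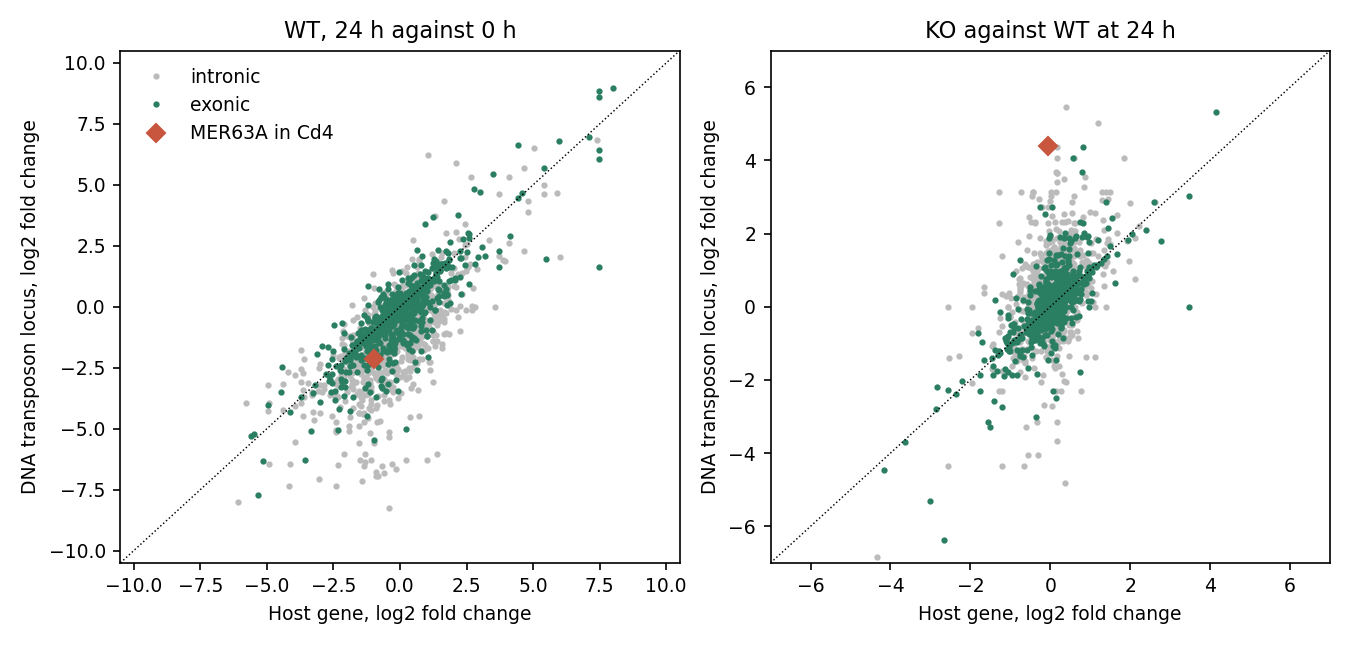
Log2 difference of each tested exonic or intronic DNA copy against that of its gene, for WT 24 h against 0 h and KO against WT at 24 h. The diamond is the MER63A copy in Cd4, which at 4.40 sits far from the level of its gene (-0.05).

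In 9 of the 66 the gene itself did not pass. Besides Cd4 these were intronic copies in Ppp2r5a (2.48, gene 0.05), Hbs1l (1.34, gene 0.22), Hivep3 (1.29, gene -0.16) and Rasal1 (-2.67, gene -0.15) and exonic copies in Acss2 (2.73, gene 0.06), Usp34 (1.88, gene 0.34), Trak2 (1.46, gene -0.04) and Traf3ip3 (1.41, gene 0.21), of which the Acss2 and Trak2 copies have 19.2% and 3.70% of their length in an exon. The Traf3ip3 copy is the URR1B sequence printed above, and it was at 0.861 and 0.703 CPM in WT and 2.29 and 1.89 CPM in KO. The URR1A copy printed from 9330175E14Rik was at 0.377 and 0.811 CPM in WT and 2.72 and 1.78 CPM in KO (1.91, gene 0.92).

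The copy that parted most clearly from its gene was MER63A in the first intron of Cd4 (chr6:124880477-124880665), the gene of the co-receptor that defines these cells, 7650 bases after its start. It had 9 and 20 counts in WT at 0 h, 1 and 4 at 8 h and 4 and 3 at 24 h. In KO it had 277 and 242, then 27 and 46, then 82 and 70 counts, above both WT libraries at each time. The log2 difference was 3.97 ± 0.35, 3.77 ± 0.51 and 4.40 ± 0.45 for the 3 times in order (adjusted p = 5.8e-12, 4.1e-06 and 3.5e-10), and it passed under all 18 alternatives at each time. Cd4 itself differed by 0.03, -0.01 and -0.05.

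Repeats of the intron were higher in KO together. Of 12 repeats in the first intron (chr6:124879694-124888079), of which MER63A is the single DNA copy, 11, 10 and 11, MER63A included, were higher in KO at 0 h, 8 h and 24 h, where 0.258%, 0.231% and 3.95% of all loci passed. Together they had 111 counts in WT and 3968 in KO at 0 h, 15 and 534 at 8 h, and 29 and 940 at 24 h. The 24 repeats in the rest of the gene had 4247 counts in WT and 4352 in KO at 0 h, and of the 12 that could be fitted 0 passed at any time. One repeat upstream, a PB1D10 element, had 0 counts in WT and 338 in KO at 0 h. The window was chosen after the MER63A value was seen, and what lies behind the difference was not tested. The counts do not show whether these reads came from the gene at its own place or from another copy of the same sequence.

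**Figure D5:**
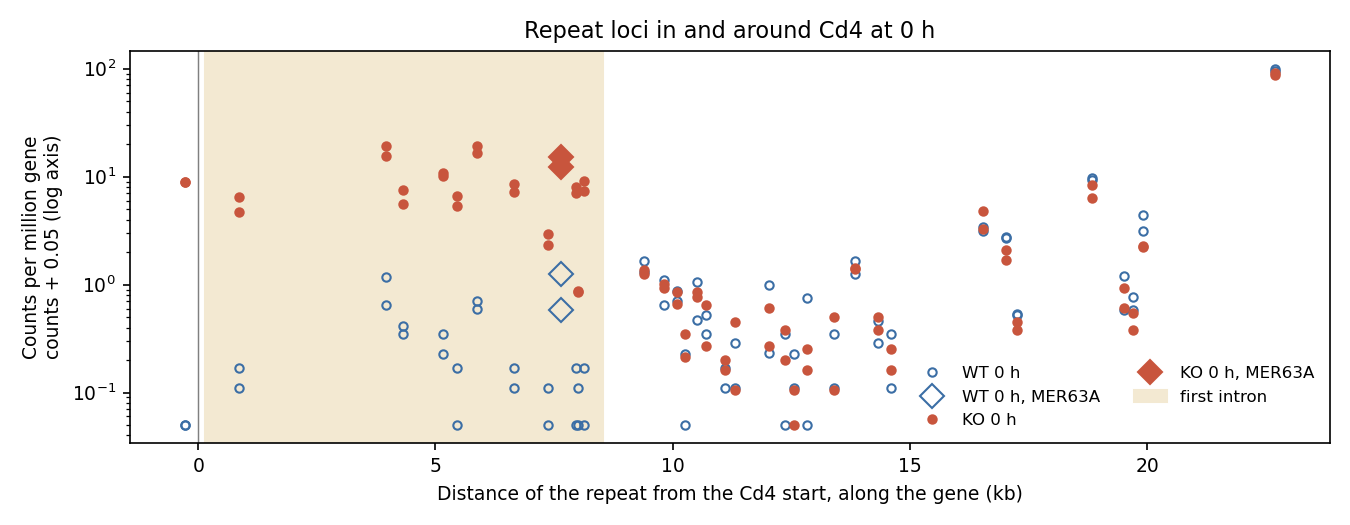
Level at 0 h of each repeat in and around Cd4 (CPM + 0.05, log axis) by distance from the start of the gene in kilobases, WT open and KO filled, with the first intron shaded. Inside the shaded stretch and just upstream KO lies above WT (3968 against 111 counts in the intron), and in the rest of the gene the genotypes overlap (4352 against 4247 counts).

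DNA transposons also left whole genes behind, and 23 of 27 genes on a list of transposase-derived genes could be tested. In WT, 9 were higher and 4 lower at 8 h and 12 higher and 4 lower at 24 h, where 62.0% and 66.6% of all 15663 genes passed. Zbed5, an hAT-derived zinc finger gene, rose by 3.96 at 8 h and 2.61 at 24 h, Pogk, a pogo-derived gene, by 3.03 and 1.47, and Jrk, a Tigger-derived gene, by 1.51 and 1.04, and its relative Jrkl fell by 0.92 and 0.87 on the log2 scale. The coding copies inside these genes can share reads with the gene, so their values are not independent of the gene's. At 8 h Charlie24 in Zbed5 differed by 4.29, Kanga2_a in Pogk by 2.83, and Tigger10 by 1.69 in Jrk and by -1.21 in Jrkl, the copy printed above.

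For KO against WT the transposase-derived genes moved in both directions. At 24 h 5 were higher and 4 lower, where 38.6% of all genes passed, and their median log2 difference was -0.12 beside 0.02 over all genes. Zbed5 (0.96 ± 0.16, adjusted p = 2e-04), Thap2 (0.47), Pogk (0.41), Tigd2 (0.40) and Gtf2ird2 (0.36) were higher. Tigd3 (-1.10), Thap4 (-0.56), Cenpb, a centromere protein derived from a pogo transposase (-0.51), and Thap12 (-0.31) were lower. At 0 h 1 gene, Jrk, was lower (-0.69, adjusted p = 0.037, 5.7% of all genes), and at 8 h 0 passed (2.65% of all genes). DESeq2 called 4 higher and 4 lower at 24 h and 0 at 0 h. The Charlie24 copy in Zbed5 was at 4.36 and 4.22 CPM in WT and 8.49 and 9.05 CPM in KO at 24 h (1.03, adjusted p = 0.006).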

How the data were processed

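RNA was measured in 12 libraries of WT and Ddx55-KO cells. The authors deposited whole-number counts per gene and per repeat locus, with no normalization. The submitters' processing notes name fastp 0.12.4, STAR 2.7.1a and mm10; the counter, its use of strand, its treatment of multi-matching reads and any collapsing of molecular identifiers were not given in the sources used, so reads of near-identical copies or of antisense transcripts cannot be told apart. Columns were matched to samples by genotype, time and replicate number.

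DNA loci were taken by class, and each was called exonic, intronic or intergenic from GENCODE M21. Counts were fitted with edgeR 4.0.16 (R 4.3.3, quasi-likelihood, 1 mean per group, 12 libraries, 6 residual degrees of freedom; robust) with library totals and TMM factors of the gene table, on 4 tables: 56 sums, 1180 subfamilies, 37251 loci and 15663 of 54232 genes. filterByExpr kept features with a count of at least 10 in a group's worth of libraries and a total of at least 15. Tests were two-sided with Benjamini-Hochberg adjustment over each whole table, and a call is an adjusted p under 0.05. The method was checked on simulated counts. Alternatives were RLE factors, totals only, repeat-based sizes, DESeq2 1.42.0, other filters, loci outside exons, a replicate block and leaving out each library. The members and gene lists were chosen with earlier results of these data known.

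Named were every family; per contrast up to 4 subfamilies per direction with the largest change (mean count of at least 50) and the 8 with most counts; per contrast up to 4 loci per direction (mean count of at least 20, groups not overlapping), the 8 loci with most counts and 5 intergenic ones; and transposase-derived genes that passed. Other subfamilies and loci past the threshold for KO against WT, and the coding copies in those genes, were named after their values were seen.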

Additional observations from a re-analysis of the deposited data

Results flagged for a closer look

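The KO effect on intergenic DNA loci differed between 0 h and 24 h by 0.83 on the log2 scale, by a test of that difference in the edgeR fit (adjusted p = 0.022). It missed the threshold under 6 alternatives, with 0.34 (adjusted p = 0.16) when scaled by repeat counts. Intergenic SINE loci shifted by 0.64 (adjusted p = 0.022), LINE loci by 0.94 and LTR loci by 0.60 (adjusted p = 0.055 and 0.052). The shift between 0 h and 24 h also passed for subfamilies named in the report. It was 1.34 for Tigger13a, 1.39 for Charlie24, 1.78 for Charlie2b, 1.0 for MER113 and 1.38 for Arthur1B. Tigger10, Tigger9b and Charlie23a passed as well, all upward. Among single copies it passed for MER117 in Vsir (1.03), URR1B in Ggta1 (1.45), Tigger13a in Fas (2.60), MER33 in Stard4 (-2.06), RMER30 in E2f2 (-4.43) and MER91B in Ncapg2 (-5.77). Over all tests of that change, 10 of 190 DNA subfamilies (8.73% over all subfamilies; scaled by repeat counts 1 upward and 6 downward) and 19 of 1550 DNA loci (1.41% over all loci) passed. The shift between 0 h and 8 h passed for 0 of each, with 91 loci at an unadjusted p under 0.05.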

How the results depend on the processing

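The groups hold 2 libraries each, so all tests share 6 residual degrees of freedom. Libraries had 45939 to 72851 counts at DNA loci, and 106551 loci had no count, so that differences there were not detectable at this depth. Of 174 values named in the text that passed the threshold, 68 passed it under every alternative and 29 changed sign under at least 1. Except where stated, the cause of a change was not tested.

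With library sizes taken from repeat counts, the difference of the class total between KO and WT became 0.034 at 0 h, -0.00085 at 8 h and -0.118 at 24 h, its shifts from 0 h to 8 h and to 24 h became -0.035 and -0.152, and the WT differences from 0 h became 0.139 at 8 h and 0.189 at 24 h. On that scale 1 family passed for KO against WT at 0 h, 2 at 24 h and 1 for each shift, 5 in WT at 8 h, and 2 subfamilies for KO against WT at 0 h. The KO calls at 24 h were then 7 higher and 13 lower subfamilies and 20 higher and 47 lower loci. In WT at 8 h hAT-Charlie became 0.13 and hAT-Tip100 0.066. In WT at 24 h the values became 0.533 for exonic copies, 0.196 for the unassigned DNA family, 0.0298 for PiggyBac, 0.319 for TcMar-Tc2, 0.267 for TcMar-Tigger, 0.159 for hAT-Charlie, 0.278 for hAT-Tip100, 0.0819 for hAT-Tip100?, 0.133 for MER2, 0.323 for MER33, 0.359 for MER58A, 0.173 for RCHARR1, 0.301 for URR1B, 0.247 for MamTip2b and 0.213 for MER20 in Ikzf1.

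With loci outside exons only, the genotype difference in DNA share was 0.122, 47 subfamilies passed for WT at 8 h and 1 for KO against WT at 0 h. Charlie16a turned to 0.381 for KO against WT at 24 h. In WT at 8 h MER112 turned to -0.104, MER45A to -1.25 and MamTip2b to -2.1, and at 24 h Charlie24 to -0.928, MER112 to -0.637, MER45A to -1.97 and MER91B to -1.32. Without the 20 highest loci, Charlie2b was 0.099 and Charlie6 -0.298 in WT at 8 h, and Charlie6 -1.01 at 24 h. Without each subfamily's highest copy, the values in WT at 8 h were 0.099 for Charlie2b, -0.299 for Charlie6, -1.18 for MER45A and -1.34 for MamTip2b, and at 24 h -0.271 for Charlie24, -1.01 for Charlie6, -1.94 for MER45A and 0.149 for MER96B. Both alternatives that leave out highest copies were chosen after seeing the data.

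With DESeq2 and with RLE factors the class total in WT at 8 h was -0.208 and missed the threshold. DESeq2 called 5 families in WT at 8 h and 3 for the 24 h shift, 1 subfamily for KO against WT at 0 h, loci to the number of 2, 3 and 34 for KO against WT and 336 and 414 for WT at 8 h and 24 h, and 0 transposase-derived genes at 0 h and 4 for the shift. RLE factors gave 6 subfamilies for the 24 h shift and 1 for KO against WT at 0 h, gene totals alone gave 1 for that shift, and no filter gave 1 at 0 h.

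The labels do not say what a replicate number shares. Of 15 same-number pairs, 8 correlated above 0.1 over genes and 3 over subfamilies, so not every pair did and the numbers were not taken to pair the samples. Within KO the correlation over genes was 0.29 (0 h and 8 h), 0.11 (0 h and 24 h) and 0.22 (8 h and 24 h). Within WT it was 0.22, 0.089 and 0.11 in that order, and between genotypes -0.099 to 0.24. Whether samples of 1 genotype with the same number share a source was not tested, and the main fit takes no account of it. With a replicate block, 1 family passed for KO against WT at 24 h, the 24 h shift of the class total was 0.327 and passed (adjusted p = 0.044), 5 families and 21 subfamilies passed for that shift, and 1 subfamily passed for KO against WT at 0 h.

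Leaving out 1 library at a time gave, for KO against WT, 0 to 1 subfamilies at 0 h and 4 to 23 at 24 h, 0 to 2 families at 24 h, and 2 to 11, 1 to 6 and 28 to 85 loci at 0 h, 8 h and 24 h. In WT at 8 h it gave -0.303 to -0.201 for the class total, 0 to 12 families, 46 to 83 subfamilies and 344 to 605 loci, and at 24 h 7 to 12 families. The 24 h shift ranged from 0.215 to 0.429 for the class total, from 0 to 8 for families and from 1 to 41 for subfamilies.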
